A study of Homo sapiens with 12 samples.

Results

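The chromosome 18 set held 202 genes, out of 1206 genes of that chromosome and 60483 genes in all that were counted by RNA-seq in HUDEP-2 cells. HUDEP-2 is an immortalised human erythroid progenitor line that matures into red cell precursors in culture. The members were all genes placed on chromosome 18 with at least 240 counts summed over the 12 libraries, apart from MBD1, MBD2 and FECH, which brought 205 genes to 202. The chromosome itself was picked because its genes were lower in knockout than in control cells at both stages, so the knockout differences below are descriptions and carry no test. At the lower edge of the set, PRELID3A and ENSG00000266805 had 245 counts each (log2 changes -0.99 and -1.51 before differentiation), and RPL30P14, with 239 counts and -0.23, fell just outside.

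There were 4 groups of 3 libraries. MBD2 knockout (MBD2-/-) cells and cells that had received a scrambled guide were each sampled before and after differentiation. Before differentiation the cells, called early basophilic erythroblasts in the labels, grew in expansion medium with SCF, EPO, dexamethasone and doxycycline. After it they were called late basophilic erythroblasts and had been in a medium with human AB serum, insulin, heparin, holo-transferrin, EPO and doxycycline, for 3 days by the extraction protocol and 5 days by the growth protocol. All groups were kept in doxycycline and EPO. The labels do not say whether the 3 libraries of a group came from separate cultures, nor whether the knockout was 1 clone, so the spread between libraries may be technical. Library totals ran from 7667997 to 14047498 counts. DNA copy number was not measured, and in bulk RNA fewer cells that carry a transcript and less of it in every cell cannot be told apart.

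Chromosome 18 is one of the chromosomes with the fewest genes, and its genes have no shared pathway. When cells gain or lose a chromosome or an arm, the RNA level of most of its genes follows the number of copies, and single genes depart from it through their own regulation. Processed pseudogenes are copies of messenger RNAs inserted elsewhere in the genome. Reads from the expressed parent gene can match them, so their counts need not come from the chromosome they lie on. MBD2 itself encodes a reader of methylated CpG dinucleotides that brings the NuRD corepressor to DNA.

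As a check of the labels, MBD2 (chromosome 18, 54151601 to 54224788, minus strand, hg38) had 22.7, 19.8 and 24.5 CPM (counts scaled to library size) in knockout libraries before differentiation, against 78.7, 77.7 and 75.3 CPM in control libraries. Its log2 change was -1.79 before and -1.91 after differentiation. Of the other genes left out of the set, MBD1, a second methyl-CpG binding protein, measured -0.35 and -0.42, and FECH, the last enzyme of heme synthesis, 0.26 and 0.96. All 16 erythroid marker genes on the list were detected, with summed levels of 9569 to 10870 CPM in knockout libraries before differentiation against 8342 to 8807 CPM in control. After differentiation they summed to 22180 to 22440 CPM in knockout libraries and 11380 to 11870 CPM in control libraries. Of these markers 13 were called higher and 0 lower before differentiation, by edgeR's quasi-likelihood test at an adjusted p under 0.05, and 16 were higher after it. Mast cell and basophil markers (7 of 14 tested; 1 higher and 4 lower before, 0 higher and 5 lower after) summed to 721.8 to 736.5 CPM in knockout and 915.7 to 965.1 CPM in control libraries before differentiation, and to 379.3 to 403.1 CPM and 657.8 to 671 CPM after it. Neutrophil and monocyte markers (6 of 13 tested, 5 higher before and 0 after) summed to 32.7 to 41.67 CPM in knockout and 14.35 to 16.32 CPM in control libraries before differentiation. Megakaryocyte markers (3 of 12 tested, 2 higher before and 1 after) summed to 43.96 to 65.2 CPM against 28.42 to 31.32 CPM, with PPBP and GP1BB at 0 counts in every library. None of 11 lymphoid markers was tested, and their sum stayed at or below 1.052 CPM. The part of these cell type differences in the chromosome 18 levels was not tested.

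Promoters of 3 members at the extremes of the set are given here. MTCL1 was among the lowest in knockout cells and MOCOS and MYO5B among the highest, and MBD2 binds methylated CG dinucleotides, so these are in capitals. Each window is from RefSeq (GRCh38.p14), 250 bases before to 50 after the annotated start, on the gene's strand. MTCL1 is chr18:8705306-8705605 (plus strand), MOCOS chr18:36187247-36187546 (plus strand) and MYO5B chr18:50195098-50195397 (minus strand).
MTCL1: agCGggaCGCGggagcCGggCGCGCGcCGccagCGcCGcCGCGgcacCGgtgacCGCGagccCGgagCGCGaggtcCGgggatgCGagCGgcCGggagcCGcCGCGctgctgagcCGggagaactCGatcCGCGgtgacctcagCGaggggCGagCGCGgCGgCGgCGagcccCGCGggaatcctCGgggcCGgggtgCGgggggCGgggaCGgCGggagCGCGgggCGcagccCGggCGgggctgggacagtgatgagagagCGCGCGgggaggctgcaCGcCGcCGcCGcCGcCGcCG
MOCOS: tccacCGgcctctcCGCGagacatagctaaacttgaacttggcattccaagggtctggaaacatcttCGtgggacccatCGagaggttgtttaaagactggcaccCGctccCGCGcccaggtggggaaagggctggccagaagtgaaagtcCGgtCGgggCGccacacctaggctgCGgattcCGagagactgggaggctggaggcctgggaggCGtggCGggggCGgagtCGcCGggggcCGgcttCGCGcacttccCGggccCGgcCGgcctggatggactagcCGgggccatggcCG
MYO5B: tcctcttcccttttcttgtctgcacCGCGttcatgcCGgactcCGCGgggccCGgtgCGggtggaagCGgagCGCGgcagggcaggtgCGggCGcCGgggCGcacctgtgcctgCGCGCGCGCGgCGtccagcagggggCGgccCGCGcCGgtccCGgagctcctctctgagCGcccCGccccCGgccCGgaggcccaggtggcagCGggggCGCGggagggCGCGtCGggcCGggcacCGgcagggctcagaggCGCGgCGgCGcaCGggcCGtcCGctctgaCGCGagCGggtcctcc
The MTCL1 window holds 59 CG dinucleotides, that of MYO5B 47 and that of MOCOS 26. Across 35116 promoter windows of the same length the median was 14, and 0.122% held as many as MTCL1, 2.41% as many as MYO5B and 30.1% as many as MOCOS. Of the 140 protein-coding members 120 had a window in the table, with a median of 30. The 35116 windows were not selected by gene kind or by counts, so the medians of 14 and 30 come from unlike sets. Sorted by the classes used below, the medians before differentiation were 36 for escaping genes (5 windows), 42 for partly escaping genes (3), 29 for genes at the chromosome level (85) and 33 for deeper genes (27). In the same order, the medians after differentiation were 29 (17 windows), 28.5 (8), 31 (62) and 28 (33). Some of these medians rest on few windows, and a link between the number of CG dinucleotides and the class was not tested. Methylation was not measured.

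By its median, the set was lower in knockout cells at both stages, and by nearly the same amount. Below 0 were 178 of the 202 members before and 167 after differentiation, against 50.8% of all tested genes at each stage. The median log2 change of the 202 members was -0.47 before differentiation, 0.721-fold, and -0.40 after it, 0.760-fold. The median over all 17175 genes tested was -0.00 before and -0.01 after differentiation. Before differentiation 137 members were called lower and 2 higher. Since 8.15% of all tested genes were called lower and 9.07% higher, and the set was picked on this contrast, nothing further is read from the count. After differentiation 107 members were called lower and 9 higher, against 16.3% and 16.8% of all tested genes. All 202 members passed the filter on low counts.

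Every knockout library showed the lower level. Chromosome 18 members took 1.10, 1.05 and 1.13% of the counts in knockout libraries before differentiation, against 1.56, 1.55 and 1.55% in control libraries. After differentiation they took 0.929, 0.962 and 0.956% in knockout libraries and 1.38, 1.34 and 1.38% in control libraries. No knockout library overlapped a control library of its stage. Over protein-coding members, the median log2 ratio to the control mean was -0.52 ± 0.08 in knockout libraries before differentiation and -0.00 ± 0.04 in control libraries (SD, n = 3 each). After differentiation it was -0.46 ± 0.03 in knockout and 0.00 ± 0.02 in control libraries (SD, n = 3 each). Knockout replicate 2 before differentiation stood lowest, at -0.61 against -0.47 and -0.47 in the others, and in it medians of the other 22 chromosomes also spread most, between -0.13 and 0.24. Without that library 124 members were called lower before differentiation and the median of all members was -0.45. Leaving out any 1 library kept that median between -0.53 and -0.45.

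**Figure D1:**
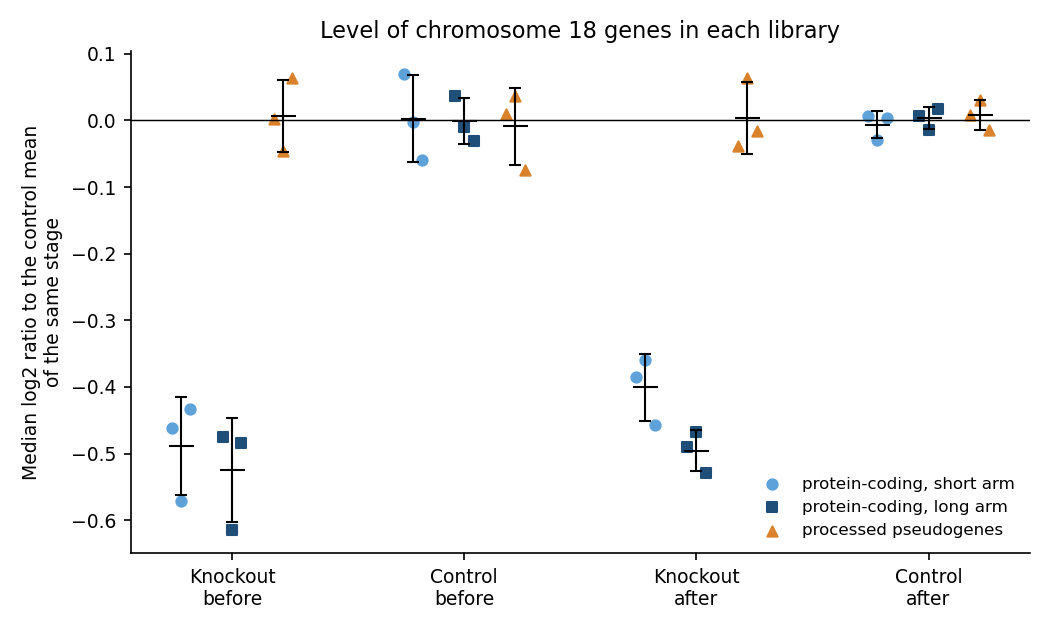
Median log2 ratio of chromosome 18 genes to the control mean of the same stage (vertical axis) in each library, for protein-coding genes of the short arm (circles), of the long arm (squares) and processed pseudogenes (triangles). Bars are the mean and SD of 3 libraries. Knockout libraries lie at -0.36 or below for protein-coding genes of both arms, and pseudogenes lie near 0 in all 4 groups.

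The lower level covered both arms. The short arm held 63 members, with medians of -0.46 before and -0.33 after differentiation. The long arm held 139, with -0.48 and -0.44. The arms were divided at the gap of 6.585 Mb between ENSG00000265437, which ends at 14361943, and ROCK1, which starts at 20946906. For protein-coding genes alone the medians were -0.51 and -0.39 over 38 short-arm genes, and -0.55 and -0.49 over 102 long-arm genes.

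Every stretch of the chromosome had a median below 0. In windows of 10 Mb from the short-arm end, the medians of protein-coding members before differentiation were -0.53 (22 genes), -0.42 (16), -0.48 (18), -0.53 (18), -0.58 (18), -0.58 (20), -0.70 (8), -0.38 (17) and -0.27 (3 genes). After differentiation the same windows had -0.40, -0.37, -0.49, -0.41, -0.43, -0.52, -0.54, -0.57 and -0.21. The last window, beyond 80 Mb, rests on 3 genes. THOC1, an mRNA export factor near the short-arm end, measured -0.32 and -0.40, and TXNL4A, a spliceosome protein near the other end, had -0.24 and -0.45. In the last window 1 of the 3 genes was called lower at each stage. Values there ran from -1.20 to -0.17 before and from -0.51 to 0.32 after differentiation. HSBP1L1, in the window before it, was above 0 at both stages.

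**Figure D2:**
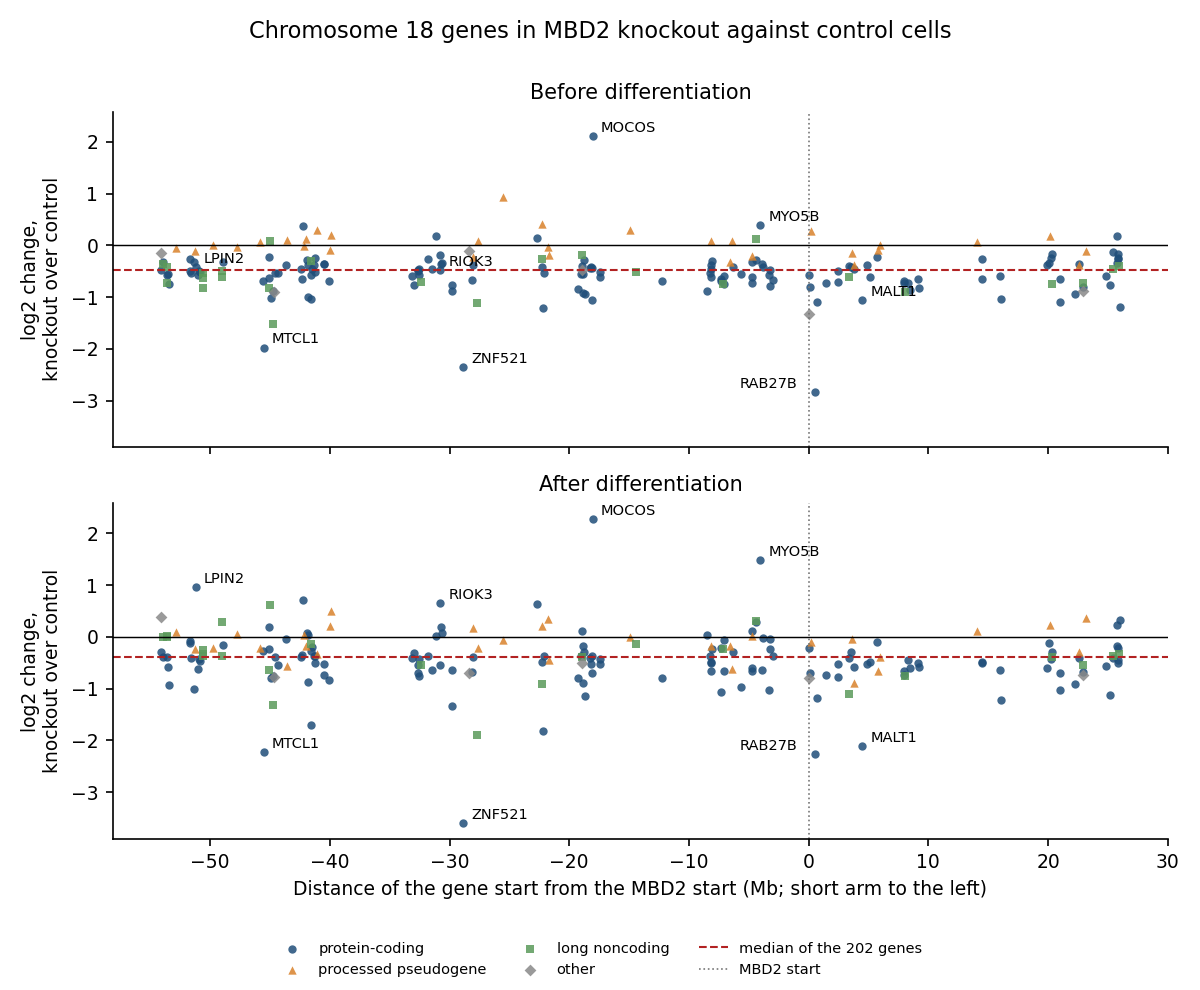
Log2 change in knockout over control cells (vertical axis) of each of the 202 genes against the distance of its start from the MBD2 start in Mb (horizontal axis), before (top) and after differentiation (bottom). Marks show the gene kind, the dashed line the median of -0.47 or -0.40. Genes on both sides of MBD2 and on both arms lie around the median, with single genes far from it.

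The members nearest to MBD2 were lower in knockout cells at both stages, apart from the pseudogene SNRPGP2 (0.28 and -0.09). The small nucleolar RNA gene SNORA37 (54222284 to 54222412) lies within the bounds of MBD2 and measured -1.33 ± 0.33 before and -0.79 ± 0.30 after differentiation (SE). It had 3.75, 1.44 and 1.45 CPM in knockout libraries and 7.79, 6.09 and 3.43 CPM in control libraries before differentiation. These ranges overlapped. POLI, a translesion DNA polymerase whose start is 0.0446 Mb away, measured -0.58 ± 0.10 and -0.22 ± 0.10. C18orf54, at 0.133 Mb, measured -0.81 ± 0.10 and -0.69 ± 0.11. On the other side of MBD2, MEX3C, an RNA-binding ubiquitin ligase, had -0.67 ± 0.06 and -0.37 ± 0.06. Back on the side of C18orf54, RAB27B, a small GTPase of secretory vesicles 0.493 Mb from MBD2, was lower still, at -2.83 ± 0.32 and -2.26 ± 0.67. These values came from few reads. RAB27B had 0.79, 0.63 and 1.36 CPM in knockout and 7.41, 7.31 and 4.95 CPM in control libraries before differentiation. Beyond it CCDC68, a centriole protein 0.735 Mb away, measured -1.09 ± 0.16 and -1.18 ± 0.21, and the basic helix-loop-helix factor gene TCF4, at 1.44 Mb, -0.73 ± 0.08 and -0.73 ± 0.09. SNORA37, C18orf54, RAB27B, CCDC68 and TCF4 lay more than 0.25 below the median of the set at both stages. No test of the neighbourhood was made.

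The gene kinds differed in level. The 140 protein-coding members had medians of -0.53 before and -0.46 after differentiation (0.692-fold and 0.729-fold), with 134 and 122 of them below 0. Long noncoding genes, 25 in number, had -0.61 and -0.36. The 31 processed pseudogenes had medians of 0.00 and -0.09, and 15 and 19 of them were below 0, with 1 called higher and 1 lower at each stage. Of all tested genes 50.8% were below 0 at each stage. Called higher and lower were 9.07% and 8.15% of all tested genes before differentiation, and 16.8% and 16.3% after it. On other chromosomes, with the same minimum of 240 counts, 1694 processed pseudogenes had medians of -0.02 and -0.03, and 10387 protein-coding genes had 0.02 and -0.02. Among the 70 protein-coding members that share no exon base with another gene, the medians were -0.53 and -0.49. Reads were counted without regard to strand, so overlapping and antisense genes cannot be separated for the others.

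The pseudogenes can be set beside their parent genes. Of 25 pairs, 24 had a parent on another chromosome. In those 24 the median was -0.03 for pseudogenes and 0.00 for parents before differentiation, and -0.13 and -0.14 after it. The pseudogene was within 0.25 of its parent in 19 and 17 pairs. RPL6P27, a copy of a ribosomal protein gene and the member with the most counts per length (516 CPM per kb), had 518, 437 and 507 CPM in knockout libraries before differentiation and 485, 476 and 526 CPM in control libraries. These overlap. PGDP1 measured 0.41 and 0.21, and its parent PGD, an enzyme of the pentose phosphate pathway on chromosome 1, 0.44 and 0.44. The exception with its parent on chromosome 18 was ROCK1P1, at -0.15 ± 0.18 and 0.39 ± 0.18, against -0.60 ± 0.06 and -0.41 ± 0.06 for the kinase gene ROCK1. ROCK1P1 is annotated as an unprocessed pseudogene and is not among the 31 processed ones. How reads were shared between copies and parents is uncertain for each of these pairs. Other members with high counts per length were FAUP1 (139 CPM per kb), SNRPGP2 (127), HNRNPA1P7 (123) and DHFRP1 (90.8), all pseudogenes, and NARS1 (126), which charges the transfer RNA for asparagine.

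Members were classed by their distance from the median of the set at each stage. Within 0.25 of it a gene was at the chromosome level, below that it was deeper, above that but under 0 partly escaping, and at 0 or above escaping. Before differentiation 114 members were at the level, 45 deeper, 19 partly escaping and 24 escaping, and after it 98, 53, 16 and 35. Of the protein-coding members 96 were at the level, 33 deeper, 5 partly escaping and 6 escaping before differentiation. After it the protein-coding counts were 73, 41, 8 and 18. Pseudogenes made up 16 of the 24 escaping members before differentiation. Across genes, the log2 changes at the 2 stages had a Pearson r of 0.81 over the 140 protein-coding members and 0.21 over the 31 pseudogenes, given as a description since genes are not replicates.

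**Figure D3:**
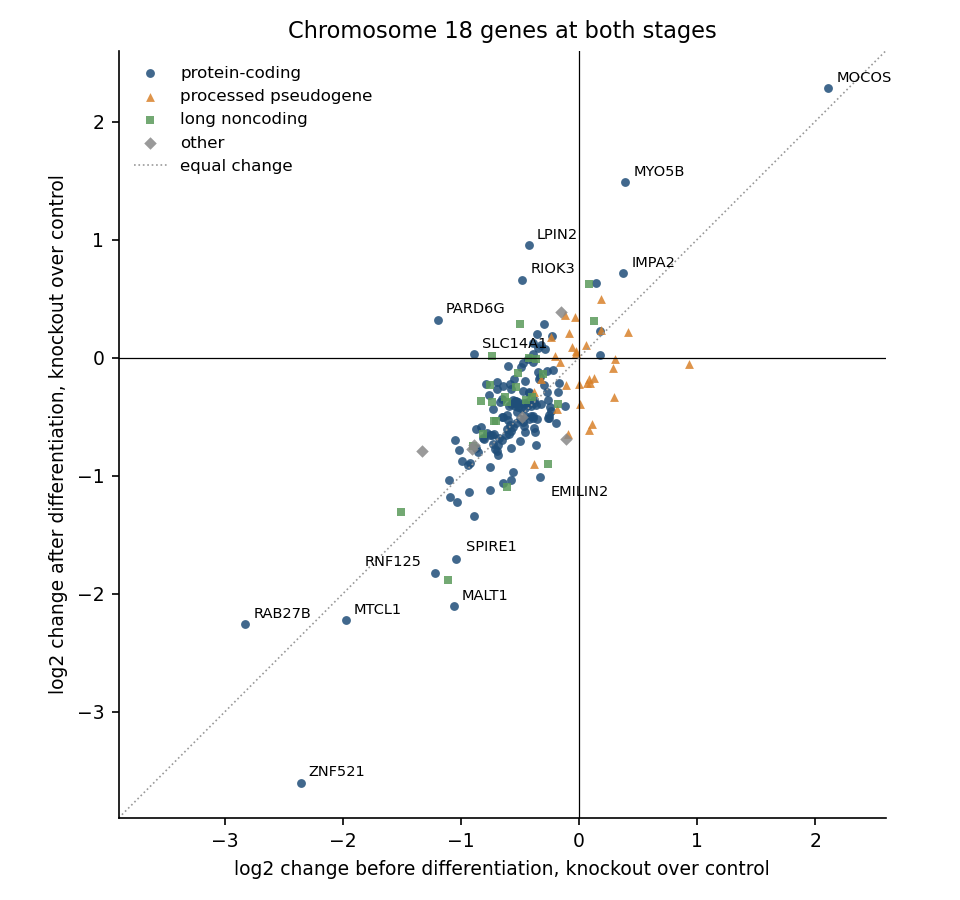
Log2 change in knockout over control cells before (horizontal axis) and after differentiation (vertical axis) for the 202 genes, by gene kind. The dotted line marks equal change. Most protein-coding genes cluster near -0.5 on both axes, MOCOS stands at 2.11 and 2.29, and LPIN2 and RIOK3 lie left of 0 and above 0.

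At both stages 72 members, 63 of them protein-coding, were at the chromosome level. Examples of high level follow. ATP5F1A, the alpha subunit of the mitochondrial ATP synthase, had 1062.5, 945.7 and 1025.2 CPM in knockout libraries before differentiation, against 1356.9, 1310.4 and 1297.2 CPM in control libraries. After it ATP5F1A had 619, 621 and 621 CPM in knockout and 857, 884 and 877 CPM in control libraries. The groups did not overlap at either stage, and the log2 changes were -0.39 ± 0.06 and -0.49 ± 0.06. NARS1 measured 416, 341 and 390 CPM in knockout libraries and 534, 496 and 489 CPM in control before differentiation, with a log2 change of -0.41 ± 0.07 at each stage. SMCHD1, a chromatin protein of X inactivation, had 299, 250 and 298 CPM in knockout and 439, 406 and 389 CPM in control libraries, with changes of -0.54 ± 0.08 and -0.41 ± 0.08. Non-overlap of this kind, with all knockout libraries below all control libraries, held for 142 of 202 members before and 124 after differentiation, where 15.4% and 23.6% of all tested genes did the same. All knockout libraries lay above control for 6 and 16 members, against 15.3% and 23.2% of all tested genes.

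Sorted by role, most lists followed the chromosome. Of all members 67.8% were called lower before and 53.0% after differentiation, against 8.15% and 16.3% of all tested genes. The set was picked on these contrasts, so nothing further is read from the counts in the lists. Cell division genes (13 of 14 listed were members) had medians of -0.49 and -0.51, and 13 were called lower before and 9 after differentiation. They included CEP192, a centrosome protein, with -0.52 and -0.38, the nuclear pore and kinetochore protein SEH1L with -0.25 and -0.51, and the tubulin TUBB6, whose change was -0.29 before and 0.08 after differentiation. Mitochondrial genes (9 of 9) had -0.39 and -0.49, with 8 lower before, and 5 lower and 1 higher after. Within that list the protease gene AFG3L2 measured -0.39 and 0.03 and the malic enzyme gene ME2 -0.57 and -1.03.

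RNA processing and translation genes (12 of 12, TXNL4A included) had medians of -0.43 and -0.48, with 11 lower before, and 11 lower and 1 higher after differentiation. ELP2 of the Elongator complex had -0.44 and -0.37, and the Sm protein gene SNRPD1 -0.50 and -0.71. Membrane traffic and lipid genes (25 of 26) had -0.59 and -0.50, with 23 lower before, and 17 lower and 2 higher after. Their most abundant members were the cargo receptor gene LMAN1 (-0.61 and -0.49), VAPA, which tethers the endoplasmic reticulum to other membranes (-0.53 and -0.55), and the tethering complex gene TRAPPC8 (-0.41 and -0.49). DNA synthesis, repair and chromatin genes (10 of 12) had -0.46 and -0.40, with 8 and 7 lower. The DNA end resection factor RBBP8 measured -0.45 and -0.63 and the BAF subunit SS18 -0.68 and -0.68.

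Ubiquitin and proteasome genes (9 of 13) had medians of -0.57 and -0.43, and all 9 members were called lower at both stages. MIB1, a ligase that acts on Notch ligands, measured -0.46 and -0.43, the proteasome-bound deubiquitinase USP14 -0.47 and -0.28, and the SUMO ligase PIAS2 -0.65 and -1.06. SMAD pathway genes (4 of 6) had -0.50 and -0.38, with 4 lower before and 3 after. SMAD2, which carries the signal of activin and TGF-beta receptors, measured -0.43 and -0.30, and the secreted BMP modulator TWSG1 -1.02 and -0.78. Signalling and cell death genes (12 of 16) had -0.56 and -0.45, with 9 lower before, and 9 lower and 1 higher after. DNA-binding factors (13 of 18) had -0.56 and -0.40, with 10 and 8 lower, among them ZNF24 (-0.55 and -0.18). ADNP2 measured -0.17 and -0.21. Red cell and cytoskeleton genes (4 of 10) had -0.54 and -0.20, with 4 lower before, and 2 lower and 1 higher after. The myosin light chain genes MYL12B (-0.50 and -0.42) and MYL12A (-0.58 and -0.62) were at the chromosome level.

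Protein complexes allow a subunit from chromosome 18 to be set beside partners from other chromosomes. Over 15 complexes with 16 such subunits, the median was -0.46 for chromosome 18 subunits and 0.04 for the partner medians before differentiation, and -0.38 and -0.04 after it. The chromosome was picked on these knockout changes, so nothing further is read from the counts that follow. The chromosome 18 subunit was below its partners' median in 16 of 16 cases before and 14 of 16 after differentiation. It was lower than every tested partner on other chromosomes in 15 and 13 cases. For SMAD2, SMAD4 and MALT1 only 1 such partner was tested. HAUS1 of augmin, which nucleates spindle microtubules, measured -0.62 ± 0.08 before differentiation against a median of 0.05 over 7 partners, and -0.65 ± 0.09 against 0.11 after it. PIK3C3, the lipid kinase of autophagy, had -0.69 ± 0.07 against 0.05 over 4 partners, and -0.79 ± 0.07 against 0.03. For both the gap to the partners was no smaller after differentiation. NDUFV2 of respiratory complex I had -0.64 ± 0.12 against 0.07 before and -0.24 ± 0.12 against 0.04 after differentiation. PSMG2, a proteasome assembly chaperone, had -0.57 ± 0.06 against -0.01 before and -0.27 ± 0.07 against -0.05 after it, so for these the gap was smaller after differentiation.

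The exceptions were few. Before differentiation THOC7, a partner of THOC1, was lower than it, at -0.36. After differentiation SMAD2 (-0.30) and SMAD4 (-0.04) were both above SMAD3 (-0.62), the 1 partner tested. The kinetochore subunits NDC80 (-0.49 and -0.08) and SKA1 (-0.43 and -0.01) were below their partner medians of -0.21 and -0.02 before differentiation, and the partner medians were -0.01 and 0.19 after it. CXXC1 of the SET1 complex measured -0.37 and -0.63, INO80C of a chromatin remodeler -0.27 and -0.29.

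**Figure D4:**
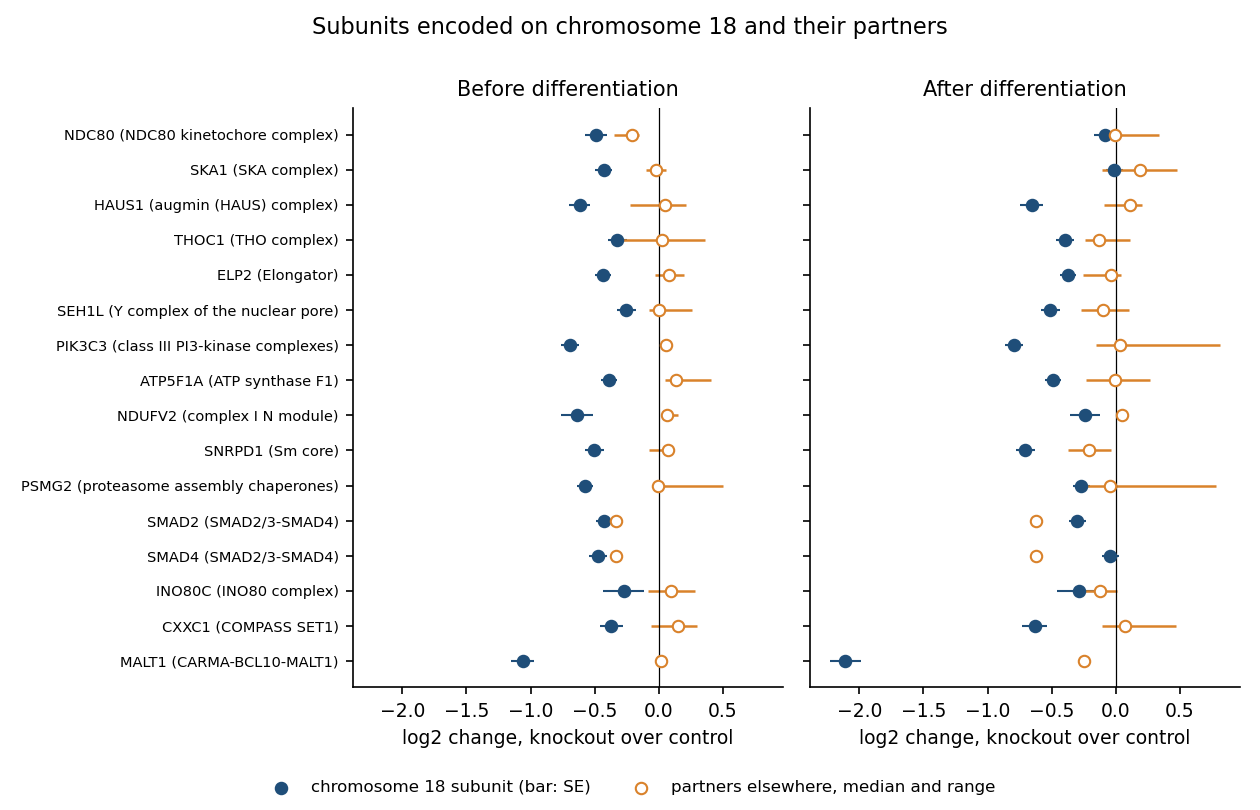
Log2 change in knockout over control cells (horizontal axis) of 16 subunits encoded on chromosome 18 (filled, bars are SE) and of their partners on other chromosomes (open circle, median; line, range), before (left) and after differentiation (right). Before differentiation the filled mark lies left of the open one in all 16 rows, after it in 14.

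A group of genes lay well below the chromosome level, and 25 protein-coding members were deeper at both stages. ZNF521 (ENSG00000198795.9, 25061926 to 25352190, minus strand), a zinc finger cofactor of blood progenitors that opposes erythroid differentiation, had 32.9, 32.7 and 38.4 CPM in knockout libraries before differentiation, against 176.9, 176.5 and 180.0 CPM in control libraries. After it ZNF521 had 1.17, 2.26 and 3.94 CPM in knockout and 30.7, 27.0 and 29.4 CPM in control libraries. No library of one group reached the other at either stage, and the log2 changes were -2.36 ± 0.11 and -3.60 ± 0.19. MTCL1 (8705661 to 8832778, plus strand), a microtubule crosslinking protein, had 2.74, 3.95 and 4.16 CPM in knockout and 12.1, 14.5 and 15.7 CPM in control libraries before differentiation. Its changes were -1.98 ± 0.17 and -2.22 ± 0.19, nearly equal at both stages.

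MALT1 (58671386 to 58754477, plus strand), the paracaspase of NF-kappaB signalling, had 139, 113 and 155 CPM in knockout and 299, 280 and 269 CPM in control libraries before differentiation. After differentiation MALT1 had 11.7, 10.3 and 11.0 CPM in knockout and 49.4, 45.3 and 47.8 CPM in control libraries. The groups stayed apart, with log2 changes of -1.06 ± 0.09 and -2.11 ± 0.12, while its partner BCL10 on chromosome 1 measured 0.02 before differentiation. RNF125, a ubiquitin ligase that acts on antiviral RNA sensors, had -1.22 ± 0.13 and -1.82 ± 0.18, and SPIRE1, an actin nucleator, -1.04 ± 0.15 and -1.71 ± 0.21. SOCS6, a cytokine signalling suppressor family member that binds the receptor KIT, had 35.7, 32.8 and 37.6 CPM in knockout and 75.1, 72.6 and 69.8 CPM in control libraries before differentiation, with changes of -1.04 ± 0.08 and -1.22 ± 0.08.

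Other low members were the oxysterol-binding protein gene OSBPL1A (-0.89 and -1.34), CCDC68 (given above), the zinc finger gene TSHZ1 (-1.10 and -1.03) and the zinc transporter SLC39A6 (-1.05 and -0.70). They lie on both arms, from 45.5 Mb before MBD2 (MTCL1) to 21.0 Mb beyond it (TSHZ1). Reads of MALT1, SPIRE1 and RNF125 may include those of an overlapping gene, since 1065, 1786 and 539 of their exon bases are shared.

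Few protein-coding genes escaped at both stages, namely IMPA2, CABLES1, DSG2, MOCOS, MYO5B and HSBP1L1. MOCOS (ENSG00000075643.5, 36187519 to 36272157, plus strand), the sulfurase that activates the molybdenum cofactor of xanthine dehydrogenase, had 4.84, 5.12 and 3.17 CPM in knockout libraries before differentiation, against 1.22, 0.68 and 1.24 CPM in control libraries. After it MOCOS had 30.4, 33.6 and 39.2 CPM in knockout and 6.28, 6.54 and 8.42 CPM in control libraries. It was higher in every knockout library at both stages, with log2 changes of 2.11 ± 0.28 and 2.29 ± 0.17. ELP2 (36129444 to 36180556), the member next to MOCOS towards the short arm, was at the chromosome level.

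MYO5B, a motor protein of recycling endosomes, had 4.19, 3.50 and 3.53 CPM in knockout and 3.38, 2.84 and 2.38 CPM in control libraries before differentiation, barely apart. After it MYO5B had 8.91, 12.1 and 8.30 CPM in knockout and 3.19, 3.71 and 3.58 CPM in control libraries. The log2 changes were 0.39 ± 0.20 and 1.49 ± 0.18. IMPA2, an inositol monophosphatase, had 7.07, 8.08 and 6.33 CPM in knockout and 4.97, 6.16 and 5.33 CPM in control libraries before differentiation, with changes of 0.37 ± 0.14 and 0.72 ± 0.11. The desmosomal cadherin DSG2 measured 0.14 ± 0.09 and 0.63 ± 0.09, HSBP1L1 0.18 ± 0.09 and 0.23 ± 0.09, and CABLES1, a cyclin-dependent kinase adaptor, 0.17 ± 0.13 and 0.02 ± 0.15.

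Some genes followed the chromosome before differentiation and left it after, among them LPIN2, RIOK3 and ACAA2. Other genes named below did not start at the chromosome level: SLC14A1 was deeper before differentiation, and MYO5B escaped at both stages. The difference between stages, which is the knockout change after differentiation minus that before it, was tested in the same fit. The set was not picked on this difference itself. The chromosome was picked on the knockout changes at both stages, and the difference is calculated from these. Counts and p-values of the difference are therefore not independent of that choice. Nothing about the chromosome as a whole is read from them. The difference was called above 0 for 20 members and below 0 for 6, where 6.28% and 6.68% of all tested genes were called. Its median over the members was 0.07. With scaling to library totals alone the counts were 8 and 17. That scaling moved the median of all tested genes by -0.15, and the members' median relative to it was 0.09 under both scalings. The genes named next were called under every alternative tried, apart from PIAS2.

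LPIN2 (2916994 to 3013315, minus strand), a phosphatidate phosphatase of lipid synthesis, had 89.3, 88.8 and 104 CPM in knockout and 49.3, 46.1 and 49.8 CPM in control libraries after differentiation. Before it LPIN2 had 41.6, 37.3 and 41.5 CPM in knockout and 51.0, 53.1 and 58.1 CPM in control libraries. Knockout libraries were thus the higher ones after and the lower ones before differentiation. The log2 change was 0.96 ± 0.08 after and -0.43 ± 0.08 before, and the difference of 1.38 ± 0.11 passed edgeR's test (adjusted p = 1.06e-06). RIOK3 (23452823 to 23486603, plus strand), an atypical kinase needed for erythroblast maturation in mouse, had 201, 202 and 205 CPM in knockout and 130, 126 and 128 CPM in control libraries after differentiation. Before it RIOK3 had 86.5, 75.3 and 73.7 CPM in knockout and 119, 106 and 105 CPM in control libraries. It too changed sides, with 0.66 ± 0.07 after and -0.48 ± 0.07 before, a difference of 1.14 ± 0.10 (edgeR adjusted p = 1.69e-06).

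SLC14A1 (45724127 to 45752520, plus strand), the urea transporter of the red cell that carries the Kidd blood group, had 29.2, 24.8 and 32.6 CPM in knockout and 31.0, 28.2 and 25.2 CPM in control libraries after differentiation, and these overlapped. Before it the groups were apart, at 12.8, 10.6 and 11.9 CPM in knockout and 20.7, 20.2 and 25 CPM in control libraries. The difference between stages was 0.92 ± 0.18 (edgeR adjusted p = 0.00221). ACAA2, a thiolase of fatty acid oxidation, changed sides in a smaller way, with 0.29 ± 0.07 after and -0.29 ± 0.07 before (difference 0.58 ± 0.10, edgeR adjusted p = 9.51e-04). For MYO5B the difference was 1.10 ± 0.28 (edgeR adjusted p = 0.0144). HDHD2, a phosphatase family gene, had a difference of 0.53 ± 0.11 (edgeR adjusted p = 0.00393). Erythroid marker RNA was also higher in knockout cells after differentiation, as given above, and its part in these differences was not tested.

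The opposite pattern, a knockout level further down after differentiation, was called for 6 genes. ZNF521 had a difference of -1.24 ± 0.24 (edgeR adjusted p = 0.00264) and MALT1 of -1.05 ± 0.15 (edgeR adjusted p = 2.41e-04). OSBPL1A measured -0.45 ± 0.09 (edgeR adjusted p = 0.00266), EMILIN2, an extracellular matrix glycoprotein, -0.69 ± 0.16 (edgeR adjusted p = 0.0082) and ME2 -0.46 ± 0.11 (edgeR adjusted p = 0.0101). The remaining gene was PIAS2, at -0.42 ± 0.11 (edgeR adjusted p = 0.0177), whose call was lost without control replicate 2 or knockout replicate 1 before differentiation, where it measured -0.41 and -0.34.

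**Figure D5:**
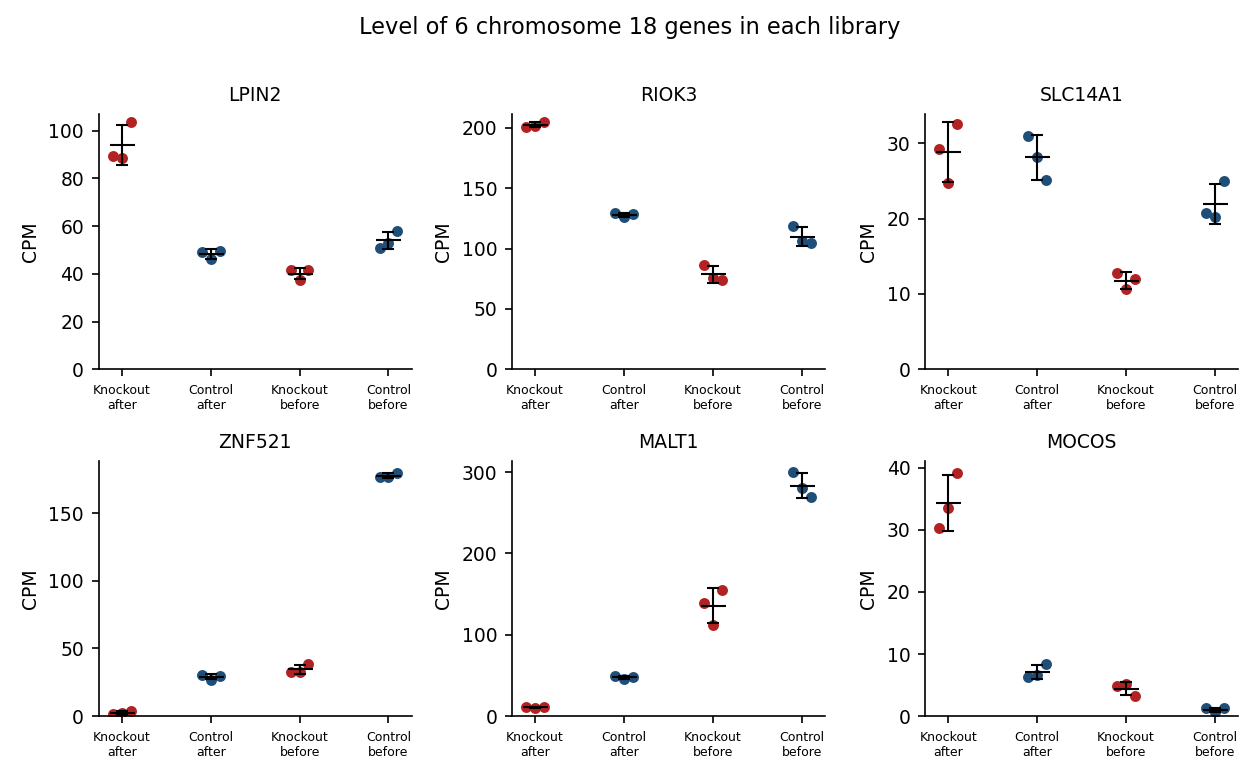
Level in CPM (vertical axis, from 0) of 6 chromosome 18 genes in each library, knockout in red and control in blue, after (left) and before differentiation (right). Bars are the mean and SD of 3 libraries. LPIN2 and RIOK3 are higher in knockout cells after and lower before differentiation, ZNF521 and MALT1 are lower and MOCOS higher at both stages.

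Differentiation itself moved chromosome 18 genes in both directions in both lines. In knockout cells 65 members rose and 66 fell after differentiation relative to before it, against 28.0% and 27.7% of all tested genes, with a median log2 change of 0.00. In control cells 41 rose and 59 fell, against 21.5% and 22.3%, with a median of -0.09. With scaling to library totals alone the counts were 39 and 84 in knockout cells and 36 and 67 in control cells. The members' shares under the main scaling were 32.2% and 32.7% in knockout cells, and 20.3% and 29.2% in control cells.

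The strongest rises in differentiation were shared by name in both lines for 3 genes. MOCOS rose with 2.96 ± 0.18 in knockout cells (edgeR adjusted p = 4.28e-10) and 2.79 ± 0.26 in control cells (edgeR adjusted p = 1.97e-07). IMPA2 rose with 1.93 ± 0.12 and 1.59 ± 0.13, and PMAIP1, a BH3-only promoter of cell death, with 1.75 ± 0.11 and 1.64 ± 0.11. RIOK3 rose with 1.36 ± 0.07 in knockout cells and 0.22 ± 0.07 in control cells, and LPIN2 rose with 1.22 ± 0.08 in knockout cells and measured -0.16 ± 0.08, not called, in control cells. TGIF1, a homeobox corepressor of SMAD signalling, rose with 0.99 ± 0.09 and 0.93 ± 0.08, and the autophagy gene EPG5 with 0.90 ± 0.06 and 0.72 ± 0.06.

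MALT1 fell by 3.62 on the log2 scale in knockout cells and by 2.58 in control cells. ZNF521 fell by 3.86 and 2.62, and EMILIN2 by 2.35 and 1.66. GALNT1, which starts mucin-type glycosylation, fell by 1.13 and 0.92, and ME2 by 1.04 and 0.58. The basic helix-loop-helix factor TCF4 fell by 1.14 in each line, and ACAA2 by 0.43 in knockout and 1.01 in control cells. The 2 differentiation contrasts share no library.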

How the data were processed

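RNA was read as read pairs from 12 HUDEP-2 libraries. The deposited counts per gene were made by the authors with featureCounts 1.4.6-p4, pairs over exons of GENCODE 22 genes (hg38) and no strand option, per the file headers. The submitters' processing notes name featureCounts 1.2.6, Subread 1.6.2, Trimmomatic, FastQC and edgeR 3.18.1. Gene symbols and kinds came from GENCODE 29.

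The members, gene lists and classes were chosen with earlier results of these data known. All genes were fitted together in edgeR 4.0.16 (R 4.3.3): filterByExpr kept 17175 genes, scaling was TMM, 1 quasi-likelihood fit over the 4 groups gave each contrast, and p-values were Benjamini-Hochberg adjusted over all tested genes at 0.05. The biological coefficient of variation was 0.089. The fit was tested on simulated data. Errors of log2 changes are SEs of the fit, CPM use the scaled library sizes, and library ratios add 0.5 CPM. An exact permutation test of 3 against 3 libraries cannot go below 0.1, so p-values are from the fit. Library totals of 7667997 to 14047498 counts limit genes under about 1 CPM, and such error covers counting only.

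Named genes were the 8 lowest and 8 highest members per stage with a symbol and mean log2 CPM of at least 2, the 6 highest per kb, the 3 most abundant per role list, complex subunits, the 8 smallest adjusted p between stages and 5 per direction in differentiation. MEX3C, POLI, C18orf54, RAB27B, SNORA37, ARIH2P1, DHFRP1, ROCK1, TXNL4A, CABLES1, SLC14A1 and HSBP1L1 were named for position, class or pairing where the rule did not give them. Alternatives were DESeq2 1.42.0, other scalings and filters, a replicate block, single libraries left out, and subsets of members. Correlations of same-numbered libraries ran from -0.02 to 0.25, so the numbers were not taken to pair libraries. Promoter sequences are RefSeq's. A member that the naming rule gave is not reported here.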

Additional observations from a re-analysis of the deposited data

Results flagged for a closer look

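The knockout difference of 21 named members changed between stages by the test of the difference itself (edgeR adjusted p under 0.05). Of all 202 members 20 were called above 0 and 6 below 0, where 6.28% and 6.68% of all tested genes were called. Some members were named for a small adjusted p in this same test, so nothing is read from the count of 21. The chromosome was picked on the knockout changes that enter this difference, so these tests are not independent of the choice. Values are log2 changes after differentiation minus before it. The value was above 0 for LPIN2 (1.38), RIOK3 (1.14), MYO5B (1.10), SLC14A1 (0.92), ACAA2 (0.58), HDHD2 (0.53) and DSG2 (0.49). Smaller values above 0 belonged to SMAD4 (0.43), SKA1 (0.42), AFG3L2 (0.42), NDC80 (0.41), the pseudogene DHFRP1 (0.40), TUBB6 (0.37), ZNF24 (0.37) and PSMG2 (0.31). Values below 0 belonged to ZNF521 (-1.24), MALT1 (-1.05), EMILIN2 (-0.69), ME2 (-0.46), OSBPL1A (-0.45) and PIAS2 (-0.42).

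With scaling to library totals alone, SMAD4, SKA1, AFG3L2, NDC80, DHFRP1, TUBB6, ZNF24, PSMG2 and DSG2 were no longer called, at values of 0.17 to 0.36. DSG2 was also lost without control replicate 2 before differentiation (0.40) or knockout replicate 2 after it (0.44). NDC80, PSMG2 and ZNF24 were each lost when any of several single libraries was left out, with values between 0.28 and 0.41. Their calls therefore depend on the scaling or on single libraries, and the cause was not tested.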

How the results depend on the processing

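Depth limits the set to genes with at least 240 counts, and overlap with other genes, sharing of reads with parent genes and the lack of a DNA measurement limit what the levels mean. No called change of a named gene reversed its direction under any alternative. Values near 0 are less certain. Scaling to library totals alone moved the median of all genes after differentiation by -0.17. That is more than the values of AFG3L2 (0.03) and TUBB6 (0.08) at that stage, so their sign depends on the scaling. With single libraries left out, members lower in knockout cells numbered 116 to 137 before and 102 to 109 after differentiation, members higher 1 to 2 and 7 to 11, and the medians ran from -0.53 to -0.45 and from -0.43 to -0.39. Before differentiation 1 member was called higher without any 1 of the 3 control libraries or knockout replicate 2 or 3 of that stage. Called differences between stages then numbered 15 to 22 above 0 and 5 to 7 below 0 (median over members 0.05 to 0.09). Differentiation gave 56 to 65 higher and 51 to 68 lower in knockout cells (median -0.02 to 0.02), and 31 to 42 and 57 to 63 in control cells (-0.11 to -0.05).

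Scaling to library totals alone gave a median of -0.55 after differentiation. Between stages 8 differences were called above and 17 below 0 (median over members -0.06). In differentiation 39 members were called higher in knockout cells (median -0.18), and the median was -0.14 in control cells. That scaling moved the median of all genes by -0.17 after differentiation, -0.15 between stages and -0.16 in knockout differentiation. DESeq2 called 1 member higher before differentiation, and the replicate block, for numbers not shown to pair libraries, called 4 and moved no other count by over 1.5 times. Without a filter on low counts the medians were 0.05 between stages, -0.05 in knockout and -0.11 in control differentiation. The 143 members with at least 1000 counts had 1 higher before differentiation, and medians of -0.07 and -0.11 in knockout and control differentiation. The 119 members whose exons overlap no other gene had 71 lower (median -0.43) before, 4 higher and 59 lower after differentiation, 7 and 3 differences between stages, 35 and 42 calls in knockout differentiation (median -0.08) and 23 and 34 in control cells, from fewer members. The 140 protein-coding members, a subset added after the data were seen, had 1 higher and a median of -0.53 before and -0.46 after differentiation.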

Other observations

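Among members with no place in the comparisons above, the long noncoding genes followed the protein-coding ones before differentiation, with 12 of 25 called lower and 0 higher. After it 6 were called lower and 1 higher. Of all tested genes 8.15% and 16.3% were called lower, and 9.07% and 16.8% higher. ZNF407-AS1, the best counted of those given here with 3004 counts, measured -0.74 before and -0.38 after differentiation. ENSG00000277534 was the lowest after differentiation, at -1.89 after and -1.11 before. TYMSOS, which overlaps its neighbour in 375 exon bases, measured 0.01 after differentiation and -0.73 before it. ENSG00000273284 was the 1 called higher after differentiation (0.62), and the snoRNA host SNHG22 measured 0.31 after and 0.13 before, not called at either stage. These genes were chosen after their values were seen.

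PARD6G, a cell polarity gene near the long-arm end, had the largest difference between stages of any member, 1.52 ± 0.33 (edgeR adjusted p = 0.00564), from low levels. It measured 3.99, 2.80 and 1.97 CPM in knockout and 2.81, 2.18 and 2.10 CPM in control libraries after differentiation, which overlap. Before differentiation PARD6G had 2.38, 2.42 and 2.17 CPM in knockout and 5.82, 4.67 and 5.71 CPM in control libraries, which do not. RMC1 and NPC1, genes of lysosomal traffic that share 604 exon bases with each other or another gene, differed between stages by 0.56 ± 0.12 and 0.43 ± 0.13 (edgeR adjusted p = 0.00496 and 0.0395). The pseudogene ARIH2P1 was called higher before differentiation, at 0.93, where its parent ARIH2 on chromosome 3 measured 0.15. It had 326 counts in all, and its call was lost with DESeq2 and without any 1 of the 3 control libraries or knockout replicate 2 or 3 of that stage, where MOCOS alone stayed called higher.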
